A study of Mus musculus with 8 samples.

Results

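The genes described here encode basement membrane proteins and proteins that bind them, and were read in sorted mouse mammary basal cells. They are 34 genes for laminin chains, collagen IV chains, other basement membrane collagens, nidogens, heparan sulphate proteoglycans and proteins that link these to each other or to cells, taken by gene symbol from the 54837 genes of a raw count table. All 34 were in the table and all 34 passed the filter on low counts. Basal cells, the outer epithelial layer of the mammary ducts, were sorted by cell cycle phase from mice whose strain is labelled C57BL/B6, with no treatment. The groups were G1, the growth phase that precedes DNA synthesis, and G0, in which cells rest outside the cycle, with 4 libraries each. Each of 4 runs gave 1 G1 and 1 G0 library. The labels name no transgene, give no age or sorting markers, and leave unsaid whether each run came from its own animals. The p-values therefore speak only of the scatter among these samples, part of which may be technical.

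The basement membrane is the thin sheet of extracellular matrix on which epithelia rest. Laminins, trimers of an alpha, a beta and a gamma chain, form one network on the cell surface, collagen IV forms another, and nidogens and the proteoglycan perlecan tie the networks together. In the mammary gland the basal, myoepithelial cells lie directly on this sheet, secrete much of it, and hold on to it through integrins and dystroglycan.

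Library totals ranged from 5868728 to 15014104 counts, and the members took between 0.711% (G0 of run 3) and 1.175% (G1 of run 1) of them. Genes with at least 1 count numbered 39094 in G0 of run 4, while the remaining libraries had 20836 to 26614. Summed CPM (counts scaled to library size by TMM) of 8 basal markers ranged from 31469 to 35173 in G1 and from 22524 to 29558 in G0, and none of the 8 was at 0 in any library. Of these, Acta2, smooth muscle actin, and Cnn1, calponin, averaged 12213 and 2630 CPM in G1, against 7926 and 1797 CPM in G0. The keratins Krt14 and Krt5 averaged 8270 and 1857 CPM in G1, against 7999 and 1829 CPM in G0. Summed CPM of 14 endothelial markers ranged from 33.3 to 136.7 in G1 and from 188.5 to 333.5 in G0. The members' transcripts are long, with a median of 6493 bases against 3097 for all tested genes, and 31 of the 34 reach 4584 bases, as do 3797 of 15183 tested genes with a known length.

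In the main model, on phase alone and without the pairing by run, 0 members and 0 of all tested genes were called. The alternative with the run as a block called 3 members higher in G1 and none of the others. Of these, Lama1 alone was still called without run 3 or without run 4. With the run as a block in edgeR's quasi-likelihood test, 3 members passed an adjusted p of 0.05 (Benjamini-Hochberg over all 15192 tested genes, or 15183 with the offsets below) and were higher in G1: the laminin chain Lama1, the collagen IV chain Col4a1 and the perlecan-binding protein Vwa1. None was called lower. These 3 are 8.82% of the members, beside 0.481% of all tested genes called higher and 0.764% called lower. With offsets for transcript length and GC content added to the blocked model, 9 members were called higher and none lower, 26.5% of the members beside 0.902% of all genes called higher and 0.909% lower. The added ones were Lamc1, Col4a2, Col18a1, Frem2, Egflam and Sparc. The members were chosen with earlier results of these data known and are mostly long, so these shares describe the list and test nothing about it.

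Without the run in the model, 0 members and 0 of all tested genes were called in either direction by edgeR's quasi-likelihood test (0% and 0%). At an unadjusted p under 0.05, that fit had 3 members higher (Lama1, Vwa1 and Egflam) and 2 lower (Lama2 and Nid2), 8.82% and 5.88% of the members beside 1.03% and 1.77% of all genes. Limma-voom, and edgeR with RLE factors or a stricter filter, called 0 members and 0 genes as well. DESeq2 without the run called 0 members, beside 0.0658% of genes higher and 0.158% lower, and edgeR without a low-count filter called 0 members, beside 0.0329% and 0.172%. With the run as a block, DESeq2 called 3 members higher beside 0.638% of genes (0.895% lower), limma-voom 3 beside 0.507% (0.882% lower) and edgeR with RLE factors 4, Egflam added, beside 0.487% (0.81% lower). From here on, a log2 fold change is G1 over G0 with its standard error in the blocked edgeR fit unless the offsets are named. Calls are those of the blocked fit, an alternative to the main model on phase alone. The median log2 fold change of the 34 members was 0.05 with the block and 0.04 without it, beside 0.0072 and -0.0007 for all tested genes. With the offsets it was 0.21, beside 0.04.

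**Figure D1:**
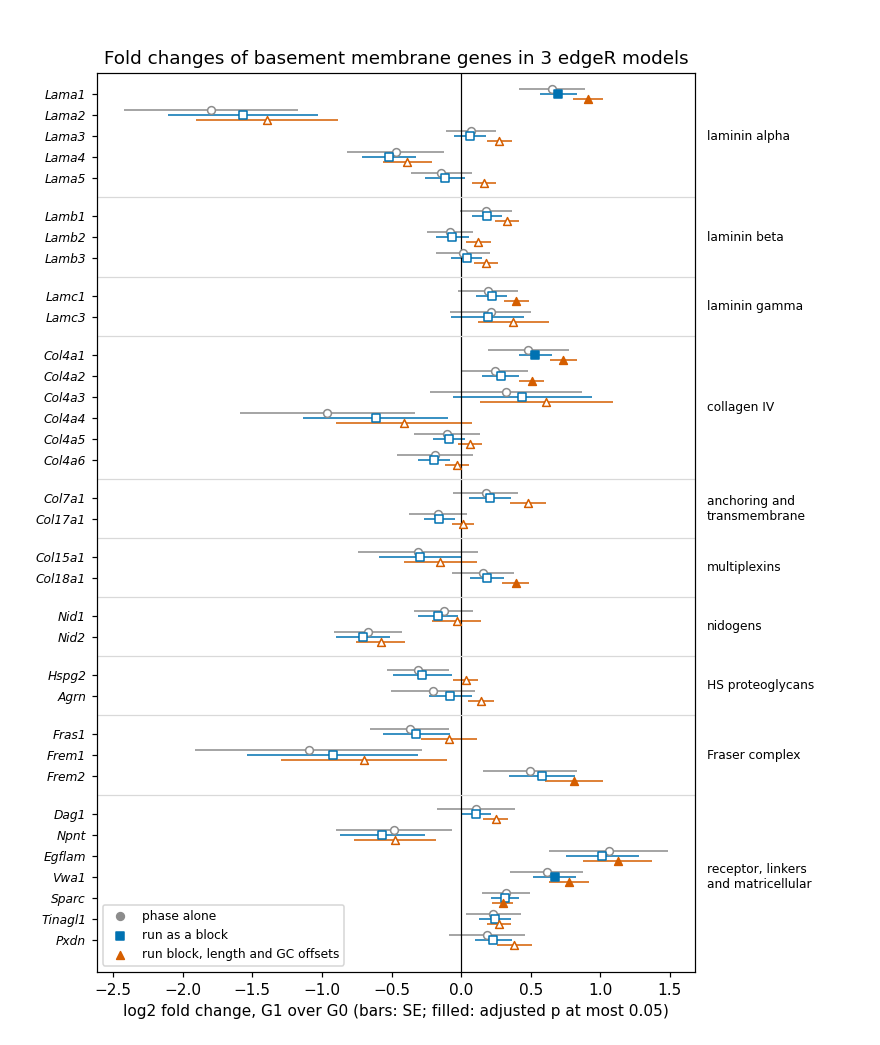
Log2 fold change (G1 over G0) of each of the 34 basement membrane genes on the horizontal axis, grouped by class, in 3 edgeR models, with bars for the standard error and filled symbols at an adjusted p of at most 0.05. No symbol is filled with the phase alone, 3 are filled with the run as a block (Lama1, Col4a1, Vwa1) and 9 with the length and GC offsets, all to the right of 0.

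The runs differed from each other. The median within-run log2 ratio of the members was 0.14, 0.03, 0.27 and -0.16 in runs 1 to 4. In tested genes of at least 4584 bases it was 0.0066, 0.05, -0.10 and -0.33, and in those of at most 1872 bases 0.03, 0.06, 0.11 and 0.23, so the ratios moved with transcript length most in run 4. Among the G0 libraries, run 4 was the highest for 22 of the 34 members and run 3 the lowest for 21. Of the members, 6 had a ratio above 0 in all 4 runs and 4 below 0 in all 4, 17.6% and 11.8%, beside 11.3% and 9.46% of all tested genes. The part of run 4's many low-count genes and of length in the members' ratios was not tested beyond the offsets and the runs left out.

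**Figure D2:**
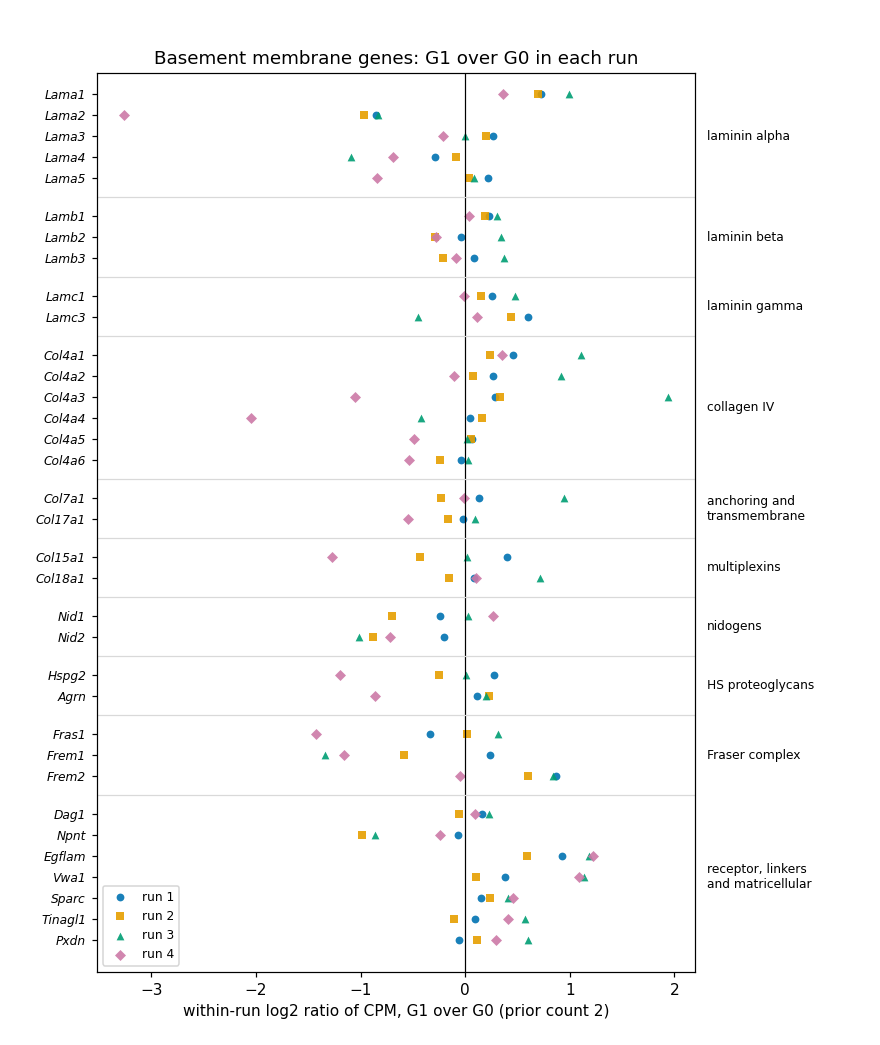
Within-run log2 ratio of CPM, G1 over G0, on the horizontal axis for the 34 basement membrane genes, with 1 symbol per run. Lama1, Lamb1, Col4a1, Egflam, Vwa1 and Sparc lie right of 0 in all 4 runs, Lama2, Lama4, Nid2 and Npnt left of 0 in all 4, and the run 4 symbols of Lama2 and Col4a4 lie more than 1.5 log2 units left of their other runs.

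Levels between genes were compared per length, as CPM per kilobase of the longest transcript, averaged over the 8 libraries. Sparc, a small collagen-binding glycoprotein, was the most abundant member at 1432 ± 209.6 CPM per kilobase (SD, n = 8 libraries, as in the rest of this paragraph). Tinagl1, a secreted basement membrane protein, followed at 216 ± 39.9, then Col4a1 at 162 ± 53.4, the hemidesmosome collagen Col17a1 at 135 ± 25.1 and Lamb3 at 123 ± 18.6. The spreads of those last genes overlap, so their order is not fixed by these libraries. At the other end, Frem1, Col4a4, Lama2 and Col4a3 were all at or below 0.250 CPM per kilobase. Of the members, 9 averaged under 10 CPM, and in 8 of these, all but Npnt, run 4 was the highest G0 library.

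**Figure D3:**
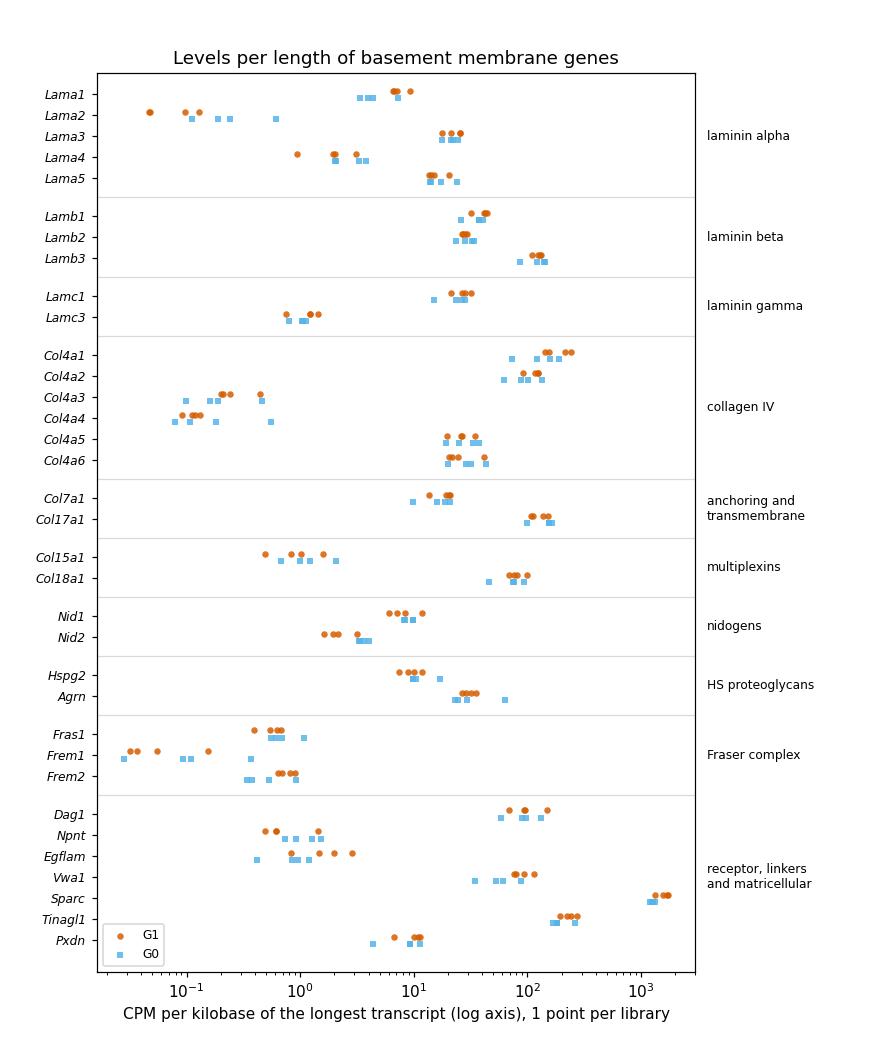
CPM per kilobase of the longest transcript on a logarithmic axis for the 34 basement membrane genes, with 1 point per library, G1 above G0 in each row. Sparc stands above 1000 in all libraries, Lama2, Col4a3, Col4a4, Frem1 and Frem2 stay below 1, and the ranges of G1 and G0 overlap in every row but that of Nid2.

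Among laminin alpha chains, which decide which receptors a laminin binds, Lama1 was called higher in G1 in the blocked fit. Lama1, the alpha chain of the first laminin to be made in the embryo, had 63.1, 67.9, 64.02 and 88.7 CPM in G1, against 38.01, 41.96, 32.01 and 68.97 CPM in G0 in runs 1 to 4. Every run had the higher value in G1, although the G0 library of run 4 lay above the G1 libraries of runs 1 to 3, so the groups overlap. Its log2 fold change was 0.70 ± 0.13 (adjusted p = 0.00423), and 0.91 ± 0.11 (adjusted p = 2.97e-05) with the offsets. It was called in all 9 versions of the blocked fit, with adjusted p from 2.97e-05 to 0.0196, the 4 with a run left out among them. Lama1 (ENSMUSG00000032796) spans bases 67697259 to 67822647 of chromosome 17, plus strand (GENCODE M21, GRCm38, counted from 1, as for all positions here).

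Lama3, the alpha chain of the laminin that anchors hemidesmosomes, was the most abundant alpha chain per length. It had 269, 268, 187 and 223 CPM in G1, against 224, 234, 187 and 257 CPM in G0 in runs 1 to 4. These values overlap almost fully, and the log2 fold change was 0.06 ± 0.11 (adjusted p = 0.878). Lama5, the alpha chain of most adult epithelial basement membranes, had -0.12, and 0.16 with the offsets, neither past the threshold. Per length, Lama3 stood 1.36 ± 0.261 times as high as Lama5 (SD, n = 8 libraries).

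Lama4 and Lama2 had negative fold changes that did not pass. Lama4, a laminin chain of blood vessels, had 18.7, 11.8, 5.72 and 12.2 CPM in G1, against 22.9, 12.5, 12.4 and 19.8 CPM in G0 in runs 1 to 4. It was lower in G1 in each run, with ranges that overlap, and its log2 fold change of -0.52 ± 0.20 (adjusted p = 0.239) did not pass. Lama2, the chain of muscle and peripheral nerve laminin, stayed under 6 CPM in all libraries, at 0.764 CPM in G1 and 2.78 CPM in G0 on average. Its log2 fold change was -1.57 ± 0.54 (adjusted p = 0.187), with within-run ratios of -0.85, -0.96, -0.83 and -3.26, so the size of its difference rested on run 4, whose G0 library also had counts on the most genes. Of 14 endothelial markers, 11 were called lower in G1, beside 0.764% of all genes, with a median log2 fold change of -1.73. They moved in the same direction as Lama4 and Lama2, but not by the same amounts across runs. The median within-run log2 ratio of the 14 markers was -2.34, -2.09, -1.11 and -1.38 in runs 1 to 4. Lama4 had ratios of -0.29, -0.08, -1.09 and -0.69. The part of these markers in the values of Lama4 and Lama2 was not tested. In bulk samples fewer cells of a type and less RNA per cell cannot be told apart.

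As a share of all laminin alpha transcripts per length, Lama1 made up 15.8% ± 3.52 in G1 and 9.998% ± 1.62 in G0 (SD, n = 4 each), higher in G1 in 4 of 4 runs. Lama3 held 46.9% ± 3.59 in G1 and 46.4% ± 4.59 in G0 (SD, n = 4 each) and Lama5 33.01% ± 4.34 in G1 and 37.00% ± 3.29 in G0 (SD, n = 4 each). Lama5's share was lower in G1 in each of the 4 runs, and Lama3's was higher in 3. These shares restate the same counts as the fold changes and carry no test of their own.

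No beta or gamma chain was called without the offsets. Lamb3, which pairs with Lama3, was the most abundant beta chain and had 623, 603, 539.5 and 645 CPM in G1, against 586, 700.0, 417 and 686 CPM in G0 in runs 1 to 4. G1 and G0 values covered the same range, and the log2 fold change was 0.04 ± 0.11 (adjusted p = 0.932). Lamb1, the beta chain that joins Lama1 and the gamma chain Lamc1, had 254, 246, 186 and 239.9 CPM in G1, against 218, 216, 151 and 234 CPM in G0. Lamb1 was higher in G1 in each run, by a within-run log2 ratio of 0.23, 0.19, 0.30 and 0.04, but did not pass, at 0.19 ± 0.11 (adjusted p = 0.513). With the offsets its adjusted p was 0.0513. Lamb2, the beta chain of synapses and kidney filters, had -0.06 (adjusted p = 0.885).

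Lamc1, the gamma chain of most laminins, had 243, 201, 161 and 215 CPM in G1, against 204, 180.3, 116 and 217 CPM in G0 in runs 1 to 4. It was higher in G1 in 3 runs and level in run 4, and its log2 fold change was 0.22 ± 0.11 (adjusted p = 0.446). With the offsets it was called, at 0.40 ± 0.09 (adjusted p = 0.0192). Lamc3 was low, at 6.81 CPM in G1 and 5.89 CPM in G0, and had 0.19 ± 0.26 (adjusted p = 0.835). Of the 10 laminin genes among the members, 1 was called higher and 0 lower, beside 0.481% and 0.764% of all tested genes, with a median log2 fold change of 0.05. With the offsets 2 were called higher and 0 lower, beside 0.902% and 0.909% of all genes, and the median was 0.23.

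Collagen IV chains form the covalently linked network of the sheet, and their genes lie in head-to-head pairs that share a start region: Col4a1 with Col4a2, Col4a3 with Col4a4, and Col4a5 with Col4a6. The first pair encodes the trimer found in nearly every basement membrane. Col4a1 had 1426, 941, 1032 and 1594 CPM in G1, against 1042, 800.4, 480.0 and 1249 CPM in G0 in runs 1 to 4. Each run had the higher value in G1, and the G0 library of run 3 was the lowest of all 8. The log2 fold change was 0.53 ± 0.12 (adjusted p = 0.0263), with within-run log2 ratios of 0.45, 0.23, 1.10 and 0.35. Without run 3 it was 0.34 (adjusted p = 0.153), and without run 4 0.59 (adjusted p = 0.0779), so the call needed both runs, while with the offsets it was 0.73 ± 0.10 (adjusted p = 9.73e-05).

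Col4a2 had 795, 590.0, 749.6 and 805 CPM in G1, against 660.3, 562, 399 and 868 CPM in G0 in runs 1 to 4. It was higher in G1 in runs 1 to 3 and lower in run 4, and did not pass, at 0.28 ± 0.13 (adjusted p = 0.402), whereas with the offsets it was called at 0.51 ± 0.09 (adjusted p = 0.00247). Col4a1 exceeded Col4a2 in its within-run log2 ratio in 4 of 4 runs, by 0.25 ± 0.14 on average (SD, n = 4 runs). The annotated starts of the genes lie 21 bases apart, with 22 bases common to both first exons, so reads there could be assigned to either gene unless strand was used in counting, which is not given in the sources used here. Col4a1 (ENSMUSG00000031502) spans bases 11198423 to 11312826 of chromosome 8, minus strand, and Col4a2 (ENSMUSG00000031503) spans bases 11312805 to 11449287 of chromosome 8, plus strand.

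Col4a5, an X-linked chain, and Col4a6, its partner in the basement membranes of skin and smooth muscle, were not called. Their log2 fold changes were -0.09 ± 0.12 (adjusted p = 0.835) and -0.20 ± 0.12 (adjusted p = 0.528), at levels of 175 CPM in G1 and 188 CPM in G0 for Col4a5, and 180.0 CPM in G1 and 205 CPM in G0 for Col4a6. Their within-run ratios were 0.07, 0.05, 0.02 and -0.49 for Col4a5 and -0.04, -0.24, 0.03 and -0.53 for Col4a6, near 0 in runs 1 and 3 and lowest in run 4 for both. Col4a3 and Col4a4, chains of the kidney filter, were low, at 2.34 CPM in G1 and 1.94 CPM in G0 for Col4a3 and 1.14 CPM in G1 and 2.32 CPM in G0 for Col4a4. Exons of Col4a3 also overlap C430014B12Rik on the opposite strand, which averaged 13.2 CPM in G1 and 13.3 CPM in G0, 618% of the level of Col4a3.

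In shares of collagen IV transcripts per length, Col4a1 made up 52.5% ± 3.86 in G1 and 45.6% ± 2.75 in G0 (SD, n = 4 each). Col4a2 held 32.3% ± 3.43 in G1 and 33.3% ± 2.14 in G0 (SD, n = 4 each). Col4a5 held 7.57% ± 1.43 in G1 and 10.03% ± 0.728 in G0 (SD, n = 4 each) and Col4a6 7.60% ± 2.10 in G1 and 10.8% ± 2.0 in G0 (SD, n = 4 each). The share of Col4a1 was higher in G1 in 4 of 4 runs, and those of Col4a5 and Col4a6 were lower in 4 of 4.

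The start regions of the pairs are shown because partner genes are read from them in opposite directions. They come from RefSeq promoter sequences on GRCm38.p6, which had an entry for 25 of the 34 members, and exon sequence after the starts is left out apart from the bases shared by Col4a1 and Col4a2. Capitals mark matches on either strand to GGGCGG (a GC box) or CCAAT. A search for TATAAA found no match in these windows. The lines give, in this order, the 22 bases shared by the first exons of Col4a1 and Col4a2 (chr8:11312805-11312826, plus strand), the 71 bases between the starts of Col4a4 and Col4a3 (chr1:82586850-82586920, plus strand), the bases before Col4a5 (chrX:141475169-141475384, plus strand) and those before Col4a6 (chrX:141474077-141474326, minus strand).
Col4a1 and Col4a2: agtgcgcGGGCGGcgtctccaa
Col4a4 and Col4a3: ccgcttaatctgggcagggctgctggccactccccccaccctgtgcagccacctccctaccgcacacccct
Col4a5: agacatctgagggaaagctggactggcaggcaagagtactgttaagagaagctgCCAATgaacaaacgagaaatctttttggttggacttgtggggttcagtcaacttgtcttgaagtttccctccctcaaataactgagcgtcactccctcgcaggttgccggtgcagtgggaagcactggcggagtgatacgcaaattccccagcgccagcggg
Col4a6: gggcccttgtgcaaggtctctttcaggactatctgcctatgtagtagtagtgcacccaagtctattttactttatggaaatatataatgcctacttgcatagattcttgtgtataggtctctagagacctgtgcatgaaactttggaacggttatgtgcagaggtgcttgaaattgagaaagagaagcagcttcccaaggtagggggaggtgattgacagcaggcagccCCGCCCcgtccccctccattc
The window shared by Col4a1 and Col4a2 is 72.7% G and C and holds GGGCGG once. Of all 32851 promoter entries, 7.19% hold GGGCGG in their last 22 bases before the start, an unlike place since this window lies in exons. The Col4a6 window holds it once, as do 32.7% of promoters over 250 bases, and the Col4a5 window holds CCAAT once, as do 30.8% over 216 bases. The Col4a4 and Col4a3 window holds none of the motifs. The starts of Col4a5 and Col4a6 are 1309 bases apart and those of Col4a3 and Col4a4 72. These matches describe letters only.

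Of the collagens that fasten the epithelium to its sheet, Col17a1, the transmembrane collagen of hemidesmosomes, had 850.1, 768, 598 and 627 CPM in G1, against 861, 861, 559 and 917 CPM in G0 in runs 1 to 4. The groups overlap, and the G0 library of run 3 stood below all others. The log2 fold change was -0.16 ± 0.11 (adjusted p = 0.618), and with the offsets 0.01. Col7a1, the collagen of anchoring fibrils, had 0.21 ± 0.15 (adjusted p = 0.648), with a ratio of 0.94 in run 3 and between -0.23 and 0.13 in the others. Col18a1, whose C-terminal fragment is the angiogenesis inhibitor endostatin, had 553, 385, 427 and 451 CPM in G1, against 521, 427, 259.5 and 419 CPM in G0. Run 3 again had the largest difference, and the log2 fold change of 0.19 ± 0.12 (adjusted p = 0.584) did not pass, whereas with the offsets it was called at 0.39 ± 0.10 (adjusted p = 0.0359). Its relative Col15a1 averaged 5.09 CPM in G1 and 6.41 CPM in G0 and had -0.29 ± 0.29 (adjusted p = 0.757).

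Neither nidogen, the bridges between laminin and collagen IV, was called in the fit with all runs. Nid2 had 15.5, 10.5, 7.96 and 9.56 CPM in G1, against 17.9, 19.5, 16.3 and 15.9 CPM in G0 in runs 1 to 4. Its highest G1 library lay below its lowest G0 library, the only member whose groups did not overlap in this direction, as in 1.17% of all tested genes; no member had all G1 libraries above all G0 libraries, as 0.829% of genes did. The log2 fold change of -0.70 ± 0.19 (adjusted p = 0.0727) missed the threshold, and without run 1 it passed, at -0.88 (adjusted p = 0.0324). Exons of Nid2 overlap Rtraf on the opposite strand, which averaged 79.3 CPM in G1 and 64.3 CPM in G0, 508% of the level of Nid2. Reads of these overlapping exons could be assigned to either gene, so the values of Nid2 may hold reads of Rtraf. Nid1 had 43.5, 37.2, 50.6 and 71.6 CPM in G1, against 51.3, 60.3, 49.8 and 59.7 CPM in G0. Its ratios changed sign between runs, and the log2 fold change was -0.17 ± 0.14 (adjusted p = 0.709). Of the 14 endothelial markers, 12 were lower in G1 in all 4 runs, as Nid2 was, beside 9.46% of all tested genes. Nid2 had within-run log2 ratios of -0.20, -0.88, -1.01 and -0.72 in runs 1 to 4, beside marker medians of -2.34, -2.09, -1.11 and -1.38. The part of these markers in Nid2's difference was not tested.

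The heparan sulphate proteoglycans carry long sugar chains that store growth factors. Agrn, agrin, which also clusters receptors at the nerve-muscle synapse, had 277, 249.8, 229.8 and 302 CPM in G1, against 256, 213, 200.4 and 550.3 CPM in G0 in runs 1 to 4. Apart from run 4, where G0 stood far above every other library, each run was slightly higher in G1. The log2 fold change was -0.08 ± 0.16 (adjusted p = 0.897), and 0.17 without run 4 (adjusted p = 0.766). Hspg2, perlecan, had 169, 126, 141 and 106 CPM in G1, against 140.1, 149.9, 140.4 and 242 CPM in G0 and showed the same break in run 4. Its log2 fold change was -0.28 ± 0.21 (adjusted p = 0.678), and 0.0015 without run 4 (adjusted p = 0.999).

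The Fraser complex, which attaches epithelium to stroma during development, was low. Frem2 had 7.79, 9.97, 8.47 and 11.1 CPM in G1, against 4.17, 6.53, 4.66 and 11.4 CPM in G0 in runs 1 to 4. Runs 1 to 3 were higher in G1 and run 4 was level, and the log2 fold change was 0.58 ± 0.24 (adjusted p = 0.288), called with the offsets at 0.81 ± 0.21 (adjusted p = 0.0442). Fras1 had -0.32 ± 0.24 (adjusted p = 0.652) and Frem1, at 0.673 CPM in G1 and 1.45 CPM in G0, -0.92 ± 0.61 (adjusted p = 0.593). Per length, Frem2 and Fras1 lay within each other's spread, 0.649 ± 0.223 and 0.648 ± 0.199 CPM per kilobase (SD, n = 8 libraries).

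Among linkers and matricellular proteins, Vwa1 was called higher in G1 in the blocked fit. Vwa1, a von Willebrand factor A-domain protein that binds perlecan, had 289, 342, 277 and 411 CPM in G1, against 222, 319, 126 and 194 CPM in G0 in runs 1 to 4. All runs were higher in G1, run 2 by little and runs 3 and 4 by more than 2-fold. The log2 fold change was 0.67 ± 0.15 (adjusted p = 0.0471), 0.51 when run 3 was left out (adjusted p = 0.0553) and 0.52 when run 4 was (adjusted p = 0.293). Vwa1 (ENSMUSG00000042116) spans bases 155768149 to 155774698 of chromosome 4, minus strand. The gene Gm26840 overlaps its exons on the opposite strand, at 142 ± 48.4 CPM in G1 and 91.9 ± 32.1 CPM in G0 (SD, n = 4 each), and its log2 fold change of 0.61 ± 0.18 did not pass (adjusted p = 0.162). Without a stated strand setting, the reads of these overlapping genes cannot be told apart here.

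Egflam, pikachurin, a ligand of dystroglycan known from retinal synapses, had the largest positive fold change of the 34 but few counts. It had 3.97, 6.98, 9.39 and 13.6 CPM in G1, against 1.996, 4.56, 4.03 and 5.72 CPM in G0 in runs 1 to 4. Each run was higher in G1, by a within-run log2 ratio of 0.93, 0.59, 1.18 and 1.22. The log2 fold change of 1.01 ± 0.26 (adjusted p = 0.0510) lay just above the threshold, and with the offsets it was 1.13 ± 0.25 (adjusted p = 0.0152). The 250 bases before its outermost annotated start (chr15:7398396-7398645, minus strand, RefSeq, GRCm38.p6) are shown because of that fold change. Capitals mark matches to CCAAT and to TGANTCA, a loose form of the AP-1 motif with any base as N.
Egflam: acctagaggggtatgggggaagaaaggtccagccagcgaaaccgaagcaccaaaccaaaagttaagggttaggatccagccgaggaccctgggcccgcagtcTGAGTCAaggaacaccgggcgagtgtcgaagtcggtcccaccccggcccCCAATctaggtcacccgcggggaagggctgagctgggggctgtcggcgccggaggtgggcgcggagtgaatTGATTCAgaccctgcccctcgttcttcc
TGANTCA occurs 2 times in this window, as TGAGTCA and as TGATTCA, and at least once in 6.75% of all promoters of that length. CCAAT occurs once, as in 33.8% of promoters. TGANTCA had no match in the collagen IV windows.

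Sparc had 3082, 3628, 3933 and 3985 CPM in G1, against 2769, 3083, 2970.0 and 2896 CPM in G0 in runs 1 to 4. Each run was higher in G1, and the log2 fold change of 0.31 ± 0.10 (adjusted p = 0.137) passed with the offsets, at 0.30 ± 0.08 (adjusted p = 0.0414), but not without them. Dag1, dystroglycan, a laminin receptor, averaged 574 ± 188 CPM in G1 and 534 ± 169.6 CPM in G0 (SD, n = 4 each) and had 0.11 ± 0.10 (adjusted p = 0.744). Pxdn, peroxidasin, which crosslinks collagen IV, had 0.23 ± 0.13 (adjusted p = 0.515), and Tinagl1 had 0.24 ± 0.12 (adjusted p = 0.396). Npnt, nephronectin, an integrin ligand, was low and lower in G1 in all 4 runs, at -0.57 ± 0.31 (adjusted p = 0.477). Of the 7 receptor, linker and matricellular genes, 6 had a positive fold change, as did 7770 of the 15192 tested genes, and the median was 0.24, beside 0.0072. Of the 7, 1 was called higher, beside 0.481% of all genes.

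**Figure D4:**
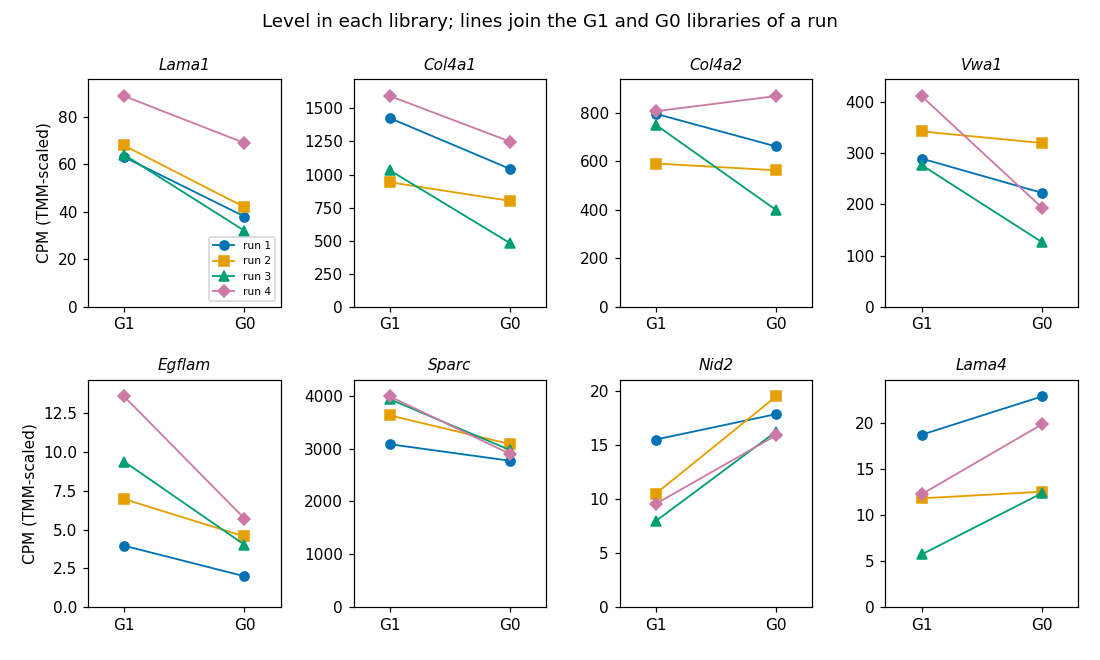
CPM on the vertical axis, starting at 0, for 8 basement membrane genes, with G1 left and G0 right and a line joining the libraries of each run. Lama1, Col4a1, Vwa1, Egflam and Sparc are higher at the G1 end in all 4 runs, Nid2 and Lama4 lower at the G1 end in all 4, and Col4a2 lower at the G1 end in run 4.

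Genes that build, modify, bind or cut the basement membrane were read from lists chosen with the members. Of 23 tested genes of collagen biosynthesis and crosslinking, 0 were called, with a median log2 fold change of 0.08. The smallest p belonged to Loxl1, a lysyl oxidase relative, at -0.90 ± 0.33 (adjusted p = 0.228), and to Ppib, a prolyl isomerase of collagen folding, at 0.26 ± 0.11 (adjusted p = 0.322). Of 22 receptors, integrin subunits, discoidin receptors, syndecans and dystrophin-complex genes among them, 0 were called, and the median was -0.01. Sgcb, a sarcoglycan, had 0.32 ± 0.13 (adjusted p = 0.292), and Utrn, utrophin, -0.27 ± 0.13 (adjusted p = 0.387).

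The sugar-modifying lists held no called gene either. Of 12 genes that glycosylate dystroglycan 0 were called, with a median of 0.05. Large2, which extends the laminin-binding sugar chain, had 0.54 ± 0.17 (adjusted p = 0.162), and Rxylt1, which adds a xylose to the same chain, 0.31 ± 0.14 (adjusted p = 0.341). Of 21 heparan sulphate genes 0 were called, with a median of -0.0037. Sulf2, which removes sulphate groups outside the cell, had -0.43 ± 0.16 (adjusted p = 0.228), and the sulphotransferase Hs6st2 had 0.39 ± 0.18 (adjusted p = 0.362).

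Of 14 proteases, 1 was called lower and 0 higher, beside 0.764% and 0.481% of all genes. The median was -0.23, beside 0.0072 for all genes, and -0.09 with the offsets, beside 0.04. Adamts1, a protease of proteoglycans, had 596, 699, 688 and 915 CPM in G1, against 679.9, 807, 1104 and 1486 CPM in G0 in runs 1 to 4. G1 was lower in each run, and the log2 fold change was -0.44 ± 0.11 (adjusted p = 0.0451). Without run 3 it was -0.37 (adjusted p = 0.120), and without run 4 also -0.37 (adjusted p = 0.275). Mmp3, stromelysin, a matrix metalloproteinase, was low, at 2.62 CPM in G1 and 6.09 CPM in G0, with -1.56 ± 0.41 (adjusted p = 0.0585), and passed with the offsets at -1.57 ± 0.40 (adjusted p = 0.0401). Its within-run log2 ratios were -2.40, -1.28, -1.11 and -1.06, and the blocked fold change lay between -2.07 and -1.23 with whole runs left out. In the fit on phase alone, without the G0 library of run 3, it was 0.22. Of 11 other basement membrane components, 0 were called, with a median of -0.30 that became -0.06 with the offsets. The matrix protein Fbln2 had 0.44 ± 0.15 (adjusted p = 0.193) and Ntn4, netrin-4, -0.30 ± 0.11 (adjusted p = 0.228).

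Marker genes of several cell types moved with phase, and their counts are read beside 0.481% of all tested genes called higher and 0.764% called lower. Of 8 basal markers, 2 were called higher in G1, Acta2, smooth muscle actin, at 0.63 ± 0.10 (adjusted p = 0.000642) and Cnn1, calponin, at 0.55 ± 0.10 (adjusted p = 0.00324), while the keratins Krt5 and Krt14 had 0.05 and 0.05. Of 10 fibroblast markers 5 were called lower, with summed levels from 761.1 to 1015 CPM in G1 and from 682.8 to 1316 CPM in G0. Of the 10, 9 had a negative fold change, while Dcn had 0.58 ± 0.16 (adjusted p = 0.0973). In these sums, Dcn averaged 255 CPM in G1 and 178 CPM in G0, and Col14a1 462 CPM in G1 and 475 CPM in G0. Of 7 adipocyte markers, 4 were tested and 2 called lower, and Adipoq, Plin1 and Cidec were at 0 in at least 1 library. The 2 called were Cd36 and Lpl. Summed adipocyte levels were 46.9 to 254.6 CPM in G1 and 283.7 to 542.4 CPM in G0. Within these sums, Fabp4 averaged 88.3 CPM in G1 and 219 CPM in G0, and Cd36 37.1 CPM in G1 and 115 CPM in G0. Adipoq, Plin1 and Cidec, which were not tested, averaged 0.447, 0.127 and 0.172 CPM in G1. In G0 they averaged 0.772, 0.629 and 0.585 CPM. The pericyte, luminal, immune and Schwann lists had 0 called. Summed pericyte levels were 17.3 to 30.5 CPM in G1 and 24.8 to 56.6 CPM in G0, luminal 1946 to 2858 CPM in G1 and 1901 to 3270 CPM in G0, immune 23.1 to 360.5 CPM in G1 and 38.5 to 333.2 CPM in G0, and Schwann 367.3 to 449.9 CPM in G1 and 383.4 to 456.1 CPM in G0. The part of other cell types in the levels of the members was not tested.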

How the data were processed

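RNA of mammary basal cells sorted into G1 and G0 was sequenced, 4 libraries each. Per the labels, polyadenylated RNA was selected and libraries were built with a stranded Illumina kit. The submitters' processing notes name Trimmomatic 0.35, STAR 2.5.2a and mm10. How reads were counted, with which strand setting and annotation, is not given in the sources used here. Raw counts per Ensembl gene, not normalized, were deposited with 1 column per library. Symbols, positions, transcript lengths and GC are those of GENCODE M21 (GRCm38, also called mm10), which matched 54808 of 54837 identifiers.

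Counts were scaled by TMM and tested with edgeR 4.0.16 (R 4.3.3, robust quasi-likelihood fit, two-sided) after filterByExpr by group, over 15192 genes at an adjusted p of 0.05 (Benjamini-Hochberg). The main model held the phase alone, because the labels give no model, and so leaves out the pairing by run. The scatter between libraries (biological coefficient of variation) was 34.9% in it and 16.9% with the run as a block. Standard errors were obtained by dividing the absolute log2 fold change by the root of F, and within-run ratios used a prior count of 2. Length and GC offsets were splines fitted per library, with 5 degrees of freedom each. Alternatives were RLE factors, other filters, DESeq2 1.42.0, limma-voom (limma 3.58.1), the run as a block, the offsets, and libraries or runs left out. Scripts were tested on simulated data. Replicates within a group differed by 23.99 to 109.7 times the sampling noise, so none was a copy.

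Run numbers were checked for pairing: deviations from the group mean correlated at 0.437 to 0.668 between G1 and G0 libraries of the same run, and at most at 0.0971 between runs, so the run numbers in the titles were taken to pair the libraries. The members and lists were chosen with earlier results of these data known. Values in every library are given for members called in any of the edgeR models and for the member of each class with the smallest blocked p or the highest level per length; Lama4 was added after its values were seen, as were the overlapping genes and the marker genes named. Of the other lists, the 2 genes with the smallest blocked p and the called genes are named.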

Additional observations from a re-analysis of the deposited data

Results flagged for a closer look

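Within each phase, the 4 libraries of every member were searched for 1 library far from the rest (a gap to its nearest neighbour of over 0.829 of the group's range, Dixon's limit for 4 samples). Of 68 groups 4 had one. The groups share the same libraries and are not independent, so this count cannot be read against chance. Col17a1 stood at 558.7 CPM in the G0 library of run 3, below 861.0 to 917.3 CPM in the other G0 libraries. Hspg2 stood at 242.1 CPM in the G0 library of run 4, above 140.1 to 150.0 CPM in the others, and Agrn at 550.3 CPM in the same library, above 200.4 to 255.9 CPM. Npnt stood at 6.66 CPM in the G1 library of run 1, above 2.25 to 2.84 CPM in the other G1 libraries.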

How the results depend on the processing

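With the phase alone in edgeR, 0 genes were called in either direction, and 0 members, and no library left out changed these counts. Without the low-count filter 14 genes were called higher and 73 lower, with DESeq2 10 and 24, and 0 members in each. Adding the run number as a replicate block gave 73 genes higher and 116 lower, RLE factors with it 74 and 123, DESeq2 97 and 136, limma-voom 77 and 134, and the length and GC offsets 137 and 138. Members called higher with the replicate block were 3, with RLE factors 4 (Egflam added), with DESeq2 3, with limma-voom 3 and with the offsets 9. With whole runs 1 to 4 left out of the blocked fit in turn, 99, 63, 73 and 21 genes were called higher and 175, 90, 144 and 76 lower, and 3, 3, 1 and 1 members higher and 1, 0, 0 and 0 lower; Lama1 alone was left without run 3 or without run 4, and Nid2 was added without run 1. The fit with offsets was not repeated with runs left out. The members' median log2 fold change lay between -0.10 and 0.14 with libraries or runs left out, and 0.09 without the filter.

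Signs of some fold changes turned with the setting, most of them near 0 and that of Mmp3 (-1.25 on phase alone) not. With the block and offsets, Lama5 had 0.16, Lamb2 0.12, Col4a5 0.065, Col17a1 0.012, Hspg2 0.032 and Agrn 0.14, and with at least 10 counts in all libraries Lamb3 had -0.0055. With run 2 left out of the blocked fit Lamb2 had 0.014 and Nid1 0.016, without run 3 Lamb3 -0.078, Col4a3 -0.13 and Col7a1 -0.044, and without run 4 Lama5 0.10, Col4a5 0.037, Col15a1 0.0063, Hspg2 0.0015 and Agrn 0.17. With each library left out of the fit on phase alone, log2 fold changes spanned -0.0085 to 0.17 for Lama3, -0.28 to 0.057 for Lama5, -0.12 to 0.11 for Lamb3, -0.0051 to 0.88 for Col4a3, -0.25 to 0.050 for Col4a5, -0.47 to 0.024 for Col4a6, -0.0009 to 0.31 for Col7a1, -0.65 to 0.039 for Col15a1, -0.0036 to 0.31 for Col18a1, -0.34 to 0.0017 for Nid1, -0.36 to 0.25 for Agrn, -0.13 to 0.32 for Dag1, -0.032 to 0.36 for Pxdn, -0.65 to 0.0075 for Ntn4 and -3.10 to 0.22 for Mmp3. None of these was called at a turned sign, and the cause was not tested. Over the union of exons in place of the longest transcript, the ratio of levels per length was 4.15 for Lamb3 to Lamb1 (3.29 before) and 8.54 for Sparc to Tinagl1 (6.73 before). Genes under about 10 CPM rest on few counts, as few as 3 in a library for Lama2 and Frem1.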
